A study of Mus musculus with 6 samples.

Results

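The cells described here were 158 fibroblast-like cells with at most 1 unique molecular identifier (UMI, the tag that marks 1 captured transcript) of the hypoxia-responsive genes Adm and Ndufa4l2, out of 6364 cells kept from 2 single-cell libraries. The members were chosen by raw UMI counts in each cell, namely Dcn at least 1, Col1a2 at least 3, Sox10 at 0, Ptprc at most 1 and Adm plus Ndufa4l2 under 2. Dcn encodes decorin and Col1a2 a chain of type I collagen, Sox10 marks melanocytic and neural crest cells, and Ptprc encodes the leukocyte antigen CD45. A cell was kept when it had at least 200 genes and at most 20% of its UMIs from mitochondrial genes. Because these same counts chose the cells, the levels of the 6 genes of the rule, and every difference between members and other cells, are given as description without a test.

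The labels describe material from the mouse melanoma line YUMM2.1 of different Bmal1 status, which stands for an Empty vector group and a Bmal1 WT group, and they do not say whether cultures or tumours were dissociated. Bmal1, listed under its symbol Arntl, is the core transcription factor of the circadian clock. The study made stable lines with an empty vector or wild-type Bmal1 by lentivirus both in native YUMM2.1, which keeps its own Bmal1, and in 1 Bmal1-null clone of it. Neither the labels nor the study's methods say which set was used, or how the cells of these droplet libraries were prepared. Whether the Empty vector line here carries Bmal1 is therefore not known. Of the kept cells, 3028 of 3978 in Empty vector and 1236 of 2386 in Bmal1 WT had at least 3 Ptprc UMIs. The libraries thus did not hold cells of the line alone. Each group was 1 droplet library holding 3 replicates, marked by hashtag antibodies whose oligonucleotides are counted beside the transcripts (h1, h7 and h8 for Empty vector, h3, h5 and h9 for Bmal1 WT). Group and droplet library therefore cannot be told apart, and nothing in the labels ties a replicate to an animal or culture. A further group, Bmal1 bHLH, was left out because its files repeat the Bmal1 WT files in 3 of 3 parts.

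Fibroblasts make and remodel the connective tissue matrix: they secrete fibrillar collagens, the small leucine-rich proteoglycans that space collagen fibrils, and the fibrillins that form microfibrils. In tumours they are also a source of growth factors and chemokines. Where oxygen is short, stabilised hypoxia-inducible factors raise a shared set of genes for glucose uptake, glycolysis and vessel growth, to which Adm (adrenomedullin) and Ndufa4l2 (a mitochondrial protein) belong. Interferons act on nearly all cells, fibroblasts included, to raise the machinery of antigen presentation by MHC class I.

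The Empty vector library held 67 members among 3978 kept cells (1.68%, exact binomial 95% interval 1.31 to 2.13), and the Bmal1 WT library 91 among 2386 (3.81%, 3.08 to 4.66). Fibroblasts with 2 or more UMIs of Adm and Ndufa4l2 numbered 47 (1.18%) and 66 (2.77%). Members were thus 58.8% (49.2 to 67.9) and 58.0% (49.8 to 65.8) of all 271 fibroblasts by the rule, a share with overlapping intervals between the libraries. All such intervals, and those of counts below, cover counting error only. No barcode was shared between the members of the libraries, against 3 among all kept cells.

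Among cells with exactly 1 hashtag, members made up 0.428%, 1.15% and 0.356% of Empty vector h1, h7 and h8. The shares were 0.125%, 0.808% and 1.23% in Bmal1 WT h3, h5 and h9. The groups overlapped, with means of 0.644% ± 0.439 and 0.720% ± 0.556 (SD, n = 3 each, two-sided exact permutation test, p = 0.90, where 3 against 3 cannot go below 0.10). Only 18 (26.9%) of the Empty vector members and 9 (9.89%) of the Bmal1 WT members carried exactly 1 hashtag, against 81.0% and 67.9% of all kept cells, so the shares over hashtags miss most members. The median member had 88 and 102 hashtag UMIs, against 321 and 303 for all kept cells.

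Members had a median of 12074 gene UMIs (range 1056 to 97296) in the Empty vector library and 21520 (830 to 177456) in the Bmal1 WT library, and a median of 2947 and 5290 genes. Fibroblasts with Adm or Ndufa4l2 were deeper in the Empty vector library (median 20747 UMIs) and alike in the Bmal1 WT library (20634). A cell with few UMIs can fall under 2 UMIs of Adm and Ndufa4l2 by shallow sampling alone, and 12 members of each library had under 3000 UMIs. Just inside the limit, 16 Empty vector and 23 Bmal1 WT members had 1 UMI of Adm or Ndufa4l2, and the other 51 and 68 had none. Just outside it, 8 Empty vector fibroblasts had exactly 2.

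The label of fibroblasts fitted most members, and 2 of them stood against it most clearly. Members with only 1 Dcn UMI numbered 1 in Empty vector and 2 in Bmal1 WT. Lum was detected in 67 of 67 Empty vector members, and 5 of the 91 Bmal1 WT members had no Lum UMI. UMIs of the Y-linked genes Ddx3y, Eif2s3y, Uty or Kdm5d were found in 4 members, all Bmal1 WT. In the Empty vector library, 85.1% of the cells with 2 or more Sox10 UMIs had a Y-linked UMI and 5.75% had Xist, the RNA of the inactive X chromosome, whereas 0.627% of the cells with 3 or more Ptprc UMIs had a Y-linked UMI and 95% had Xist. Xist was detected in 70.1% of Empty vector and 75.8% of Bmal1 WT members. By Xist and the Y-linked genes, most members were like the Ptprc cells and unlike the Sox10 cells. The deepest Bmal1 WT member, with 177456 UMIs, held 13 Y-linked UMIs, 28 Col1a2 UMIs, 1 Dcn UMI and none of Lum or Xist, and alone supplied 8.61% of the UMIs of its library's members. A further member had 62157 UMIs, 9 Y-linked UMIs and 29 Dcn UMIs, again without Lum or Xist. The other two had 1 Y-linked UMI each beside 142 and 53 Lum UMIs. Together the 4 held 14.8% of the UMIs of Bmal1 WT members. Some results below are also given without them, and all other values include them.

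**Figure D1:**
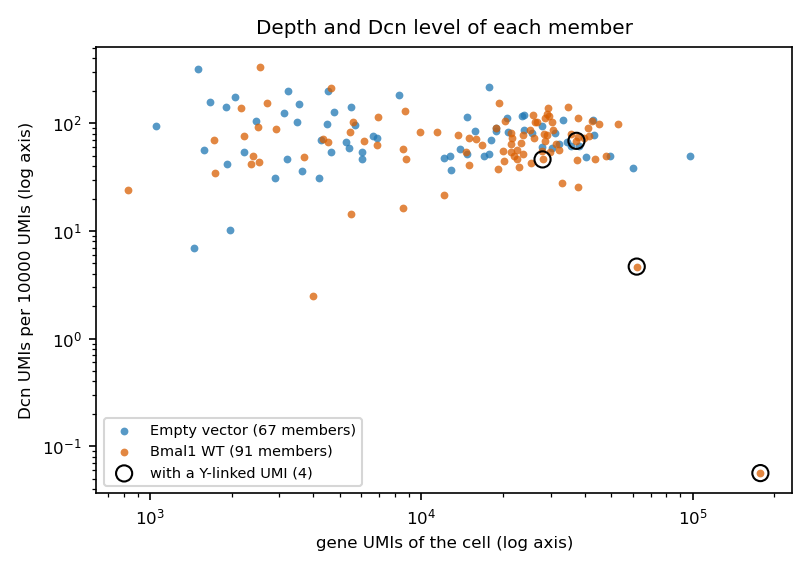
Each point is 1 member, with its gene UMIs on the horizontal axis and its Dcn UMIs per 10000 UMIs on the vertical axis, both on log axes, in blue for Empty vector (67) and orange for Bmal1 WT (91); circles mark the 4 members with a Y-linked UMI. Medians lay at 72.6 and 70.9 Dcn UMIs per 10000, and the deepest Bmal1 WT member lay far below all others at 0.0564.

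Set against all other kept cells, members carried the matrix and growth factor genes of fibroblasts and nearly none of the genes of leukocytes. Levels are UMIs summed over the members of a library and scaled to a total of 1000000 (CPM). The fibrillin Fbn2 (chr18:58008623-58210487, build mm10) stood at 1283 CPM in members of Empty vector and 1290 CPM in those of Bmal1 WT, against 25.5 and 25.2 CPM in the other cells. Lum, for the proteoglycan lumican, stood at 3750 and 2921 CPM against 86.3 and 75.7 CPM, and lies beside Dcn on the genome (Dcn chr10:97479609-97518143, Lum chr10:97565128-97572703). Igf1, for insulin-like growth factor 1, reached 2436 and 1170 CPM against 58.8 and 56.7 CPM, and the IGF-binding protein gene Igfbp5 reached 5635 and 4595 CPM against 203 and 122 CPM. The surface protein gene Cd34 stood at 1003 and 762 CPM and the thrombospondin gene Thbs4 at 2181 and 1373 CPM, where the other cells had at most 67.7 CPM of either. Fbn2, Lum, Igf1, Cd34 and Thbs4 were named as markers of these cells with results of these data known.

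Of 12719 genes with at least 100 UMIs, 358 (2.81%) were over 4-fold higher in members in both libraries and 498 (3.92%) were over 4-fold lower, on a scale of log2(CPM + 5) that understates the ratios of low genes. Among the leading 15 higher genes were the transporter genes Abca8a and Abca8b, Ccl11 (the eosinophil chemokine eotaxin, 1325 and 1033 CPM against 49.4 and 40.8), Gpc3 (the cell-surface proteoglycan glypican 3, 1013 and 692 CPM against 35.9 and 32.0), Islr, Lama2, Mfap2, Fndc1 and Itm2a. The leading lower genes belonged to antigen-presenting cells and lymphocytes: Cd74, the invariant chain of MHC class II, stood at 4.58 and 3.88 CPM against 2712 and 1943 CPM. Ccl5 stood at 1.83 and 1.46 CPM against 1404 and 791 CPM, and Lyz2, the lysozyme of macrophages, at 1.83 and 0.485 CPM against 797 and 417 CPM. A few UMIs of such genes per library are what free RNA can leave in a barcode.

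**Figure D2:**
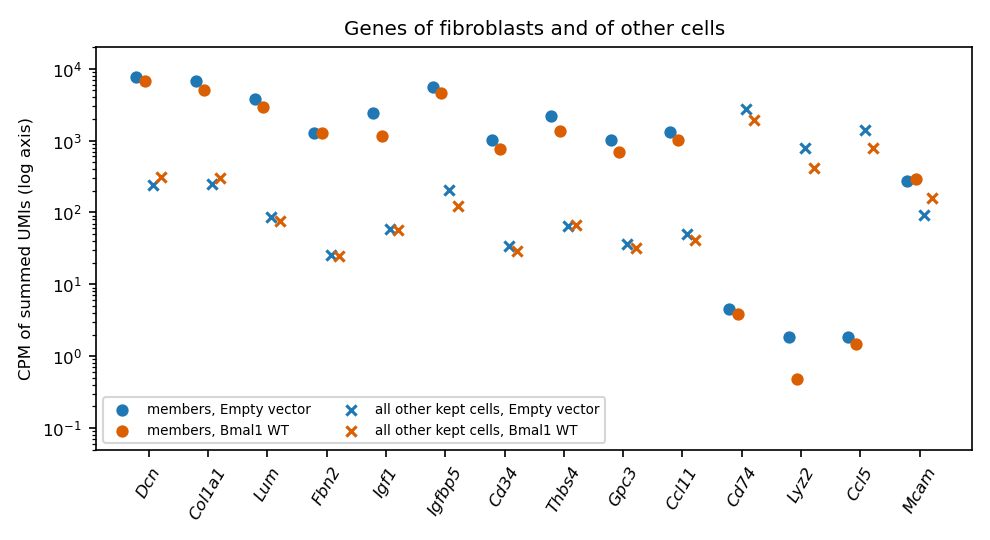
CPM of summed UMIs on a log axis for 14 genes, with members as dots and all other kept cells as crosses, Empty vector in blue and Bmal1 WT in orange. The genes from Dcn to Ccl11 lay over 4-fold higher in members in both libraries, Cd74, Lyz2 and Ccl5 far lower, while Mcam, which perivascular cells also express, was present in members.

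Marker lists of leukocytes, melanoma and endothelial cells were lower in members than in the other kept cells, while those of pericytes, tendon and chondrocytes were higher in sum, mainly through 1 gene each. All 5 neutrophil markers were at 0 in both libraries, as were 4 of 5 B cell, 4 of 5 adipocyte, 5 of 6 skeletal muscle and 4 of 6 keratinocyte markers. The 10 macrophage markers summed to 5.49 and 3.88 CPM against 1275 and 805 CPM in the other cells, with Adgre1, Fcgr1, Mrc1 and Ms4a7 at 0. The 10 T or NK cell markers summed to 18.3 and 8.74 CPM against 2686 and 1111 CPM, with Cd3d, Cd8a and Ncr1 at 0. The 10 pericyte markers summed to 347 and 367 CPM against 144 and 258 CPM, of which Mcam gave 273 and 295 CPM, while Abcc9, Kcnj8, Myh11 and Cnn1 were at 0. The 12 melanoma markers summed to 110 and 135 CPM against 293 and 522 CPM, with 7 at 0 (Dct, Erbb3, Gpr17, Mlana, Sox10 by the rule, Tyr and Tyrp1). S100b was at 0 in Empty vector and at 17.0 CPM in Bmal1 WT members, or 9.69 CPM without the members with Y-linked UMIs. The tendon list summed to 2189 and 1374 CPM against 66.2 and 70.2 CPM, in which Thbs4 alone passed 10 CPM and Tnmd, Scx, Fmod and Chad were at 0. Sox9, listed for chondrocytes, stood at 588 and 367 CPM, against 43.9 and 97.9 CPM for the whole list in the other cells, with Acan, Col2a1, Col9a1 and Matn3 at 0. Of 10 general fibroblast markers, 9 passed 10 CPM, with Dpt the exception at 3.66 and 0.971 CPM. Cdkn2a, a tumour suppressor gene deleted in many melanoma lines, stood at 135 and 169 CPM in members and at 0 and 0.0879 CPM in the Sox10 cells.

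The comparison with the 113 fibroblasts that carried 2 or more UMIs of Adm and Ndufa4l2 asked how far the rule separated cells that are otherwise alike. Of 7351 genes with at least 100 UMIs over both sets, 65 (0.884%) were over 2-fold higher in members in both libraries and 170 (2.31%) over 2-fold lower. The median over all these genes was a log2 ratio of 0.08 in Empty vector and 0.07 in Bmal1 WT. The rule uses 2 hypoxia genes of the same cells, so the lower level of other hypoxia genes in members comes from the same contrast and is no separate finding.

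Hypoxia and glycolysis genes made up the largest block. Of 42 tested, 37 were over 2-fold lower in members, with median log2 ratios of -1.95 and -1.89. Summed over the list without Adm and Ndufa4l2, Empty vector members had 7426 CPM (95% Poisson interval 7265 to 7589). Bmal1 WT members had 8032 CPM (7910 to 8155), against 23013 and 24269 CPM in the other fibroblasts of the 2 libraries. Ndrg1, a hypoxia-induced stress gene, stood at 36.6 and 46.6 CPM against 795 and 888 CPM. Ero1l, for an oxidase that helps fold secreted proteins, stood at 66.8 and 101.5 CPM against 1632 and 1756 CPM. Genes of transport and oxygen sensing were lower as well. The glucose transporter gene Slc2a1 stood at 25.6 and 56.8 CPM against 488 and 499 CPM, and the oxygen-sensing hydroxylase gene Egln3 at 22.0 and 26.2 CPM against 378 and 293 CPM. Vegfa, the vessel growth factor, stood at 165 and 121 CPM against 924 and 762 CPM, and Lox, which crosslinks collagen, at 124 and 66.5 CPM against 681 and 662 CPM.

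**Figure D3:**
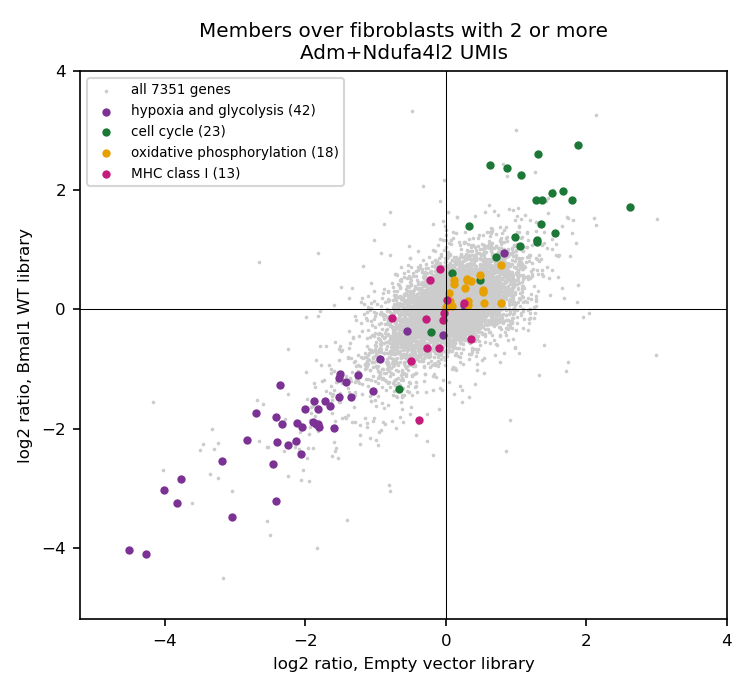
Each point is 1 of 7351 genes, with the log2 ratio of members over the other fibroblasts in the Empty vector library on the horizontal axis and in the Bmal1 WT library on the vertical axis; coloured points are genes of 4 lists. Hypoxia and glycolysis genes (purple) lay mostly at the lower left, with medians of -1.95 and -1.89, and cell cycle genes (green) mostly at the upper right, with medians of 1.28 and 1.44.

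The bases before the start sites of Slc2a1 and Egln3 are shown as examples of the hypoxia list, so that the letters the factor is known to bind can be seen beside the levels (RefSeq, GRCm38.p6, 250 bases upstream, written 5′ to 3′ on the strand of the gene). Capitals mark the core of the hypoxia response element, ACGTG or GCGTG, searched on both strands. The Slc2a1 window is chr4:119108495-119108744 on the plus strand and the Egln3 window chr12:54203875-54204124 on the minus strand.
Slc2a1: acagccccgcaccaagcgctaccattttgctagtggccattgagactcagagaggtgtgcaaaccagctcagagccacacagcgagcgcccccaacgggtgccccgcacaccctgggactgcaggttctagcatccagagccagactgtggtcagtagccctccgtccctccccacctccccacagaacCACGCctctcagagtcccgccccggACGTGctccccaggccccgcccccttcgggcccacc
Egln3: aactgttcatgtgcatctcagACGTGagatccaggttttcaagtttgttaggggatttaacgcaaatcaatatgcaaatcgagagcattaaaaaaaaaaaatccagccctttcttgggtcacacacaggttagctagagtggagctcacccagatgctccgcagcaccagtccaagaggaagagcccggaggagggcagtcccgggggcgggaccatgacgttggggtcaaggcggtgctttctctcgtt
These letters occurred in 38 of 42 genes of the hypoxia and glycolysis list that have a promoter in the table (90.5%), against 41.5% of all 27025 genes with one and 12 of 20 cell cycle genes (60%). The motif is short, its forms overlap on the palindrome CACGTG, and a match is not a measured binding site.

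Genes of other programmes were also lower in members, and their counts are given beside the 2.31% of all 7351 genes that were over 2-fold lower. Of 19 interferon-stimulated genes, 5 were over 2-fold lower (Ifit1, Ifit3, Isg15, Rsad2 and Rtp4), with Rsad2, an antiviral enzyme, at 15.6 and 3.88 CPM against 179 and 198 CPM. Of 21 immediate-early genes, 4 were lower (Dusp1, Fosl1, Ier3 and Klf2). Of 23 genes of the endoplasmic reticulum and its unfolded protein response, 3 were lower: the chaperones Hspa5 (893 and 1021 CPM against 2187 and 2684) and Hsp90b1, and the stress factor Ddit3. Among secreted factors, Cxcl1 stood at 18.3 and 21.4 CPM against 250.1 and 122 CPM, Cxcl12 at 16.5 and 5.83 CPM against 55.7 and 23.5 CPM, and the prostaglandin synthase gene Ptgs2 was nearly absent at 0.915 and 1.46 CPM against 91.6 and 36.8 CPM. The protease genes Plau and Mmp3 were lower too, but Mmp3, with 1.83 and 0 CPM against 62.3 and 20.5 CPM, was found in 1 of the 47 and 1 of the 66 other fibroblasts, so that 1 cell per library carried its contrast. Of the matrix genes, Col12a1 (0.915 and 6.80 CPM against 55.7 and 74.8) and Fbln2 (52.2 and 82.0 CPM against 328 and 425) were lower. Of 6 fibrillar collagen genes, 0 passed 2-fold in either direction, which is near the share over all genes and no result about this list. The metallothionein gene Mt2 stood at 69.6 and 129 CPM against 907 and 1264 CPM.

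Fewer genes were higher in members than in the other fibroblasts, and matrix and receptor genes were among them. Fbn2 was higher by log2 1.04 in Empty vector (622 to 1283 CPM) and 1.41 in Bmal1 WT (483 to 1290 CPM), and Ltbp1, which stores latent TGF-beta in the matrix, by 1.09 and 1.0, though it was under 2-fold without the 4 members with Y-linked UMIs. Itga1, the collagen-binding integrin chain, stood at 599.5 and 728 CPM against 294 and 338 CPM. The leptin receptor gene Lepr was at 41.2 and 58.3 CPM against 5.66 and 16.9 CPM, detected in 25.4% and 31.9% of members. The imprinted RNA H19 was at 135 and 38.8 CPM against 12.3 and 10.3 CPM, in 13.4% and 12.1% of members. Seen per cell, with at least 3000 UMIs, Fbn2, Igf1 and Lum stood further apart than in the sums. The median member had 1169.5 and 1178 CPM of Fbn2 where the median other fibroblast had 251 and 206 CPM, and 2379.8 and 881 CPM of Igf1 against 566 and 150 CPM. Lum had medians of 4031 and 3044 CPM against 2243 and 953 CPM. Cd34 and Thbs4 differed less in the Empty vector library, with medians of 848 against 741 CPM and 1629 against 1271 CPM, and more in Bmal1 WT for Cd34, with 789 against 265 CPM, where Thbs4 had 1267 against 838 CPM. Ccnd1, for cyclin D1, stood at 775 and 635 CPM against 312 and 281 CPM.

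The list with the most higher genes was the cell cycle, with 14 of 23 tested, where 0.884% of all genes were over 2-fold higher. Mki67, a proliferation marker, stood at 54.9 and 131 CPM against 12.3 and 33.2 CPM, but in 7.46% and 15.4% of members only, and 1 cell held 46.7% and 30% of its UMIs in each library. Without the 4 members with Y-linked UMIs, 11 of these genes remained over 2-fold higher. Cells were also thinned to 3000 UMIs each, and those with a UMI of any of 8 mitotic genes were counted. They were 12 of 55 Empty vector members (21.8%, 95% interval 11.8 to 35.0) and 17 of 79 Bmal1 WT members (21.5%, 13.1 to 32.2). In the other fibroblasts they were 7 of 46 (15.2%, 6.34 to 28.9) and 7 of 64 (10.9%, 4.51 to 21.2). The share was higher in members in both libraries, with intervals that overlapped those of the other fibroblasts, and the difference was not tested. Without thinning the shares were 31.3% and 40.7% of members, and 25.5% and 31.8% of the other fibroblasts. The 18 genes of oxidative phosphorylation tested were all above 0 in log2 ratio in both libraries. Their medians were 0.31 and 0.31, where the medians over all genes were also above 0, at 0.08 and 0.07. None passed 2-fold, which is near the 0.884% of all genes over 2-fold higher.

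The depth and the makeup of the barcodes moved with these differences. The median mitochondrial share was 4.95% and 3.72% in members against 2.85% and 2.34% in the other fibroblasts. Malat1, an abundant RNA of the nucleus, was under 1000 CPM in 22 of 67 (32.8%) Empty vector and 16 of 91 (17.6%) Bmal1 WT members, against 2 of 47 (4.26%) and 5 of 66 (7.58%) other fibroblasts. Without those cells 73 genes were over 2-fold higher and 160 lower, close to the counts with them, and the part of damaged cells in single values was not tested.

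Members were not uniform. Clustering of the 158 cells gave 5 groups, which are described by their leading genes and kept as numbers. The group of 52 members with Ptx3, Kcnk2 and Abca6 in front was the largest and held 20 Empty vector (29.9%) and 32 Bmal1 WT (35.2%) members. A group of 27 (9 and 18) was led by the immediate-early genes Dusp1, Fos and Btg2, with Dusp1 at 626 CPM against 54.8 CPM and Fos at 2084 CPM against 245 CPM in the other members, all without the members with Y-linked UMIs. Its leading genes Ctgf and Mmp9 came from few cells, 1 of which held 85.5% and 87.8% of their UMIs. A group of 14 (4 and 10) was led by the mitotic genes Ube2c, Prc1, Mki67 and Cenpf and the histone gene Hist1h2ap, and was the deepest with a median of 36487 UMIs.

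A group of 34 (17 in each library) was led by genes that interferon induces, among them Gbp4, Cxcl9 and AW112010, with the complement gene C3 and with Lpl, whose UMIs in Bmal1 WT members lay to 95.5% in 1 cell. Its Empty vector members had 7066 CPM (6787 to 7354) of interferon-stimulated genes and its Bmal1 WT members 2708 CPM (2547 to 2877). The last group, 31 members (17 and 14), stood apart in the kind of RNA it held. It had a median of 3537 UMIs from 833 genes, and without its 1 member with Y-linked UMIs Malat1 stood at 96.3 and 196 CPM, against at least 11558 CPM in each of the other groups. Xist was found in 2 of 17 and 0 of 13 of these cells, and ribosomal protein genes took 22.5% and 25.1% of their UMIs, against 9.49% to 14.7% elsewhere. Its leading genes without that member were Lox, Bnip3, Ndrg1, Mt1 and Mt2. For Ndrg1, Mt1 and Mt2, 1 cell held 75.7%, 75.3% and 76.8% of the UMIs. Lox and Bnip3 were found in 40% and 26.7% of its cells, against 52.4% and 41.1% of the other members, not matched for depth. Without that member its hypoxia and glycolysis list summed to 11265 and 15853 CPM, against 4846 to 8461 CPM in the other groups. The group thus met the limit on Adm and Ndufa4l2 but had the highest level of this list. These barcodes met the rule with little nuclear RNA, and why was not tested.

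Between the libraries, members of Bmal1 WT had less MHC class I and interferon-stimulated RNA than members of Empty vector. With 1 library per group there is no test over libraries, and values are given with Poisson intervals. Of 5230 genes with at least 100 UMIs over the members, 47 (0.899%) were over 2-fold higher in Bmal1 WT and 70 (1.34%) over 2-fold lower, with a median log2 ratio of -0.01 over all genes. Arntl, the gene added to the YUMM2.1 line in the Bmal1 WT group, had 26.5 CPM in Empty vector members against 42.7 CPM in those of Bmal1 WT. It was found in 25.4% and 42.9% of members, shares not matched for depth, and stood at 28.5 and 40.1 CPM in all other kept cells. Whether any member carried the lentiviral construct was not tested. Of 11 clock genes tested, 0 passed 2-fold.

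Of 11 genes for MHC class I and its peptide loading, 7 were over 2-fold lower in Bmal1 WT members and 11 were below 0, with a median log2 ratio of -1.19. Empty vector members had 6655 CPM (6503 to 6810) over the list and Bmal1 WT members 2716 CPM (2645 to 2788). H2-K1, a class I heavy chain, stood at 1439.7 against 398 CPM (log2 -1.84), and B2m, the light chain, at 3016 against 1318 CPM (log2 -1.19). Tapbp, the tapasin that bridges class I to the peptide transporter, stood at 336 against 88.4 CPM (log2 -1.87), the transporter gene Tap1 at 155 against 48.1 CPM, and the immunoproteasome gene Psmb9 at 69.6 against 24.3 CPM. H2-K1 and the other heavy chain genes are close paralogues, among which reads can be split or lost. Without the 4 members with Y-linked UMIs, 10 genes of the list were over 2-fold lower.

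The difference was spread over cells. Among members with at least 3000 UMIs, H2-K1 ranged from 121 to 5874 CPM with a median of 1425 CPM over 55 Empty vector cells, and from 0 to 2987 CPM with a median of 186 CPM over 79 Bmal1 WT cells. It was at 0 in 0 and 6 of them. B2m had medians of 2565 and 620 CPM and H2-D1 of 822 and 174 CPM. In the same cells Fbn2, whose level did not separate the libraries, had medians of 1169.5 and 1178 CPM. Each of the 5 groups of members had less MHC class I RNA in Bmal1 WT, but by unequal amounts. The summed level was 4474 against 1370.2 CPM in the group led by Ptx3 and 10568 against 3145 CPM in the interferon-led group, which hold no member with Y-linked UMIs. It was 4426 against 2639 CPM in the immediate-early group, and 2811 CPM in Bmal1 WT without its 1 such member. In the group with little Malat1 and the mitotic group a few cells set the gap. The former had 10759.8 against 9679 CPM, with overlapping intervals (10066 to 11489 and 9115 to 10270.2), and 3689 CPM in Bmal1 WT without its 1 such member. The latter had 3259 against 2896 CPM, also with overlapping intervals (2993 to 3543 and 2738 to 3060), and 1092 CPM in Bmal1 WT without its 2 such members. Fibroblasts with Adm or Ndufa4l2 of the same libraries had a median log2 ratio of -1.04 over the same list, with H2-K1 at 1758 against 443 CPM. All other kept cells had H2-K1 at 2625 against 1218 CPM, also lower in Bmal1 WT, where 3028 of 3978 and 1236 of 2386 kept cells had at least 3 Ptprc UMIs.

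Depth and cell quality moved with the libraries, and their part in the difference was not tested. Bmal1 WT members had more UMIs (median 21520 against 12074), fewer cells with little Malat1 (17.6% against 32.8%) and fewer with 1 hashtag. Among members with at least 10000 UMIs, 34 and 63 cells, the log2 ratio was -1.82 for H2-K1 and -1.13 for B2m. With at least 1000 CPM of Malat1 it was -1.84 and -1.06, and without the members with Y-linked UMIs -2.03 and -1.62. Members with 1 hashtag gave -1.86 and -1.59, and members with none gave -1.73 and -1.04.

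Of 14 interferon-stimulated genes, 10 were over 2-fold lower in Bmal1 WT members, with a median log2 ratio of -1.47 against -0.47 in the other fibroblasts. Gbp2, a guanylate-binding protein of cell defence, stood at 241 against 61.7 CPM. Iigp1, an immunity-related GTPase, stood at 725 against 209 CPM. The chemokine gene Cxcl9, which draws T cells, stood at 454 against 30.1 CPM (log2 -3.71), and was found in 38.8% and 8.79% of members. In the other fibroblasts Cxcl9 stood at 52.9 and 54.9 CPM.

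**Figure D4:**
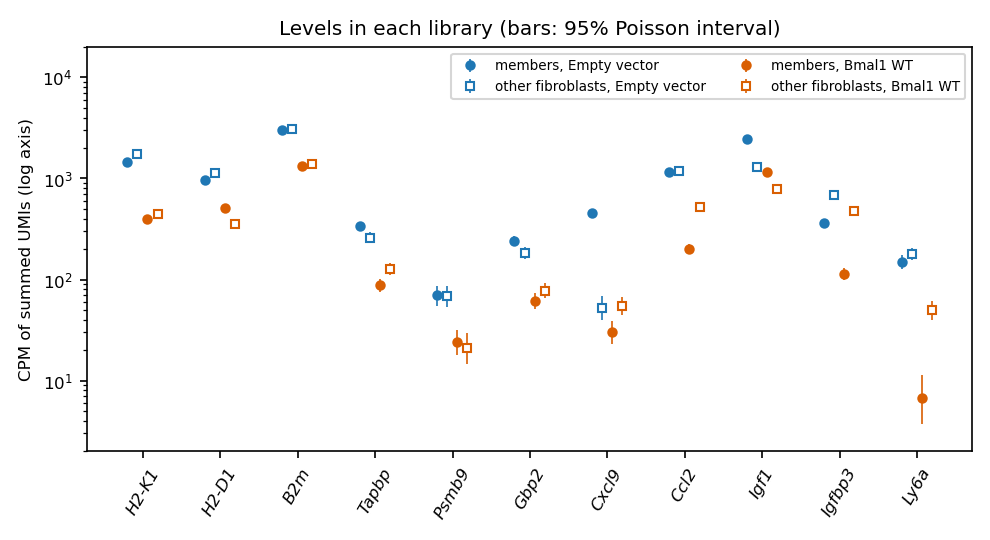
CPM of summed UMIs on a log axis for 11 genes, with members as filled dots and fibroblasts with 2 or more UMIs of Adm and Ndufa4l2 as open squares, Empty vector in blue and Bmal1 WT in orange, and bars for 95% Poisson intervals. All 11 genes lay lower in Bmal1 WT members, H2-K1 at 398 against 1439.7 CPM, while in the other fibroblasts Cxcl9 lay at the same level in both libraries.

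The bases before the start sites of B2m and Gbp2 are shown as examples of these lists, from the same RefSeq table. Capitals mark the letters of the interferon-stimulated response element, searched on both strands as 2 copies of GAAA with any 2 bases between them, which read TTTC in the reverse. The B2m window is chr2:122147437-122147686 and the Gbp2 window chr3:142620413-142620662, both on the plus strand of GRCm38.p6.
B2m: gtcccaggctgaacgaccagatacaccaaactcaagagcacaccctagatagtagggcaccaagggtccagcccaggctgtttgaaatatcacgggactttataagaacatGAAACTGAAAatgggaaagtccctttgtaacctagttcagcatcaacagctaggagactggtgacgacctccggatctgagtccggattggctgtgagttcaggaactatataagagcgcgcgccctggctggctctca
Gbp2: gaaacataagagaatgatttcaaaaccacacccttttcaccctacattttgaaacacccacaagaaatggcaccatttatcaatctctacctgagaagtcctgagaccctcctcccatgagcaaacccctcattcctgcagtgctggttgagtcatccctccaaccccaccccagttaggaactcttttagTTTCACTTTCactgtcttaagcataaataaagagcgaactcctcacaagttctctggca
The letters occurred in 10 of 15 genes of the interferon-stimulated list with a promoter in the table (66.7%) and in 2 of 11 of the MHC class I list (18.2%), against 3.46% of all 27025 genes with one. The interferon-gamma activated site was searched as well, as TTC and GAA with any 3 bases between them. It occurred in 4 of the 15 (26.7%) and 1 of the 11 (9.09%), against 8.13% of all genes. A match is not a measured binding site.

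Lower genes of the other lists are given beside the 1.34% of all 5230 genes that were over 2-fold lower. Of 9 inflammatory fibroblast genes 4 were over 2-fold lower, of 9 chemokine and cytokine genes 4 (the lists share members), of 9 genes of the IGF axis 2, and of 6 complement genes 2. Ccl2, the monocyte chemokine, stood at 1152 CPM in Empty vector against 202 CPM in Bmal1 WT members (log2 -2.48), though 1 cell held 26.8% of the Empty vector UMIs. Ccl7, the alarmin gene Il33 (260 against 78.2 CPM) and the hyaluronan synthase gene Has2 were over 2-fold lower as well. Igf1 had a log2 ratio of -1.06, and of -0.85 without the members with Y-linked UMIs, and Igfbp3, which binds it, stood at 362 against 113 CPM. The complement gene C3 stood at 136 against 19.4 CPM, and C1s1 at 582 against 269 CPM. Igf1 and Has2 were under 2-fold without the members with Y-linked UMIs, as was 1 gene each of the complement and lipid lists. Ly6a, which encodes the surface protein Sca-1, stood at 148 against 6.80 CPM, and the collagen gene Col14a1 at 230 against 89.3 CPM. The lipocalin gene Apod, the fatty acid genes Fabp5 and Scd1, the patterning gene Hoxc10 and the cell cycle inhibitor gene Cdkn1a completed the list genes over 2-fold lower. Mmp9, for a gelatinase, stood at 346 against 19.4 CPM, but 64.6% of its Empty vector UMIs came from 1 cell.

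The genes that were higher in Bmal1 WT members rested largely on few cells. S100a4 stood at 359 CPM against 23.8 CPM, of which 90.4% came from the 4 members with Y-linked UMIs, and at 40.5 CPM without them. Likewise Mt1 went from 509 to 160 CPM without them (61.3 CPM in Empty vector), Kcnn4 from 51.9 to 6.27 CPM (5.49 CPM in Empty vector) and Hmga2 from 189 to 70.7 CPM (36.6 CPM in Empty vector). Without these cells 21 genes were over 2-fold higher, 14 of them among the 47, and 62 were over 2-fold lower, 54 of them among the 70. Of the 6 cell cycle genes over 2-fold higher, 1 was so without them, and the hypoxia genes Slc2a1 and Hilpda were not. Growth factor genes among the higher were Pdgfa (94.2 against 27.5 CPM, and 42.2 CPM without these cells) and Tgfb2 (204 against 89.7 CPM, found in 60.4% and 52.2% of members). The early response gene Ier3 stood at 112 against 30.2 CPM and Sema5a, a guidance protein gene, at 102 against 31.1 CPM. Ctgf stood at 55.8 against 22.9 CPM, with 81.7% of its Bmal1 WT UMIs in 1 cell.

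Matrix genes were measured in the same way. Of 5 fibrillar collagen genes, 13 elastic fibre genes, 5 proteoglycan genes and 19 genes of collagen processing, 0 passed 2-fold in either direction, which is near the share over all genes and no result about these lists. Col1a1 stood at 6659.5 and 5041 CPM, Postn, for periostin, at 2457 and 3175 CPM, and Sparc, for osteonectin, at 7741 and 6559.6 CPM. Fbn2 stood at 1283 CPM (1217 to 1352) and 1290 CPM (1242 to 1340), with overlapping intervals. Of 11 myofibroblast genes, 0 passed 2-fold.

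Over hashtags a test was possible with 3 Empty vector replicates (6, 8 and 4 members for h1, h7 and h8) and 2 Bmal1 WT replicates (4 members each for h5 and h9), since h3 had 1 member. With edgeR's quasi-likelihood test on UMIs summed per hashtag and Benjamini-Hochberg adjustment, 0 of 2006 genes (0%) were called at an adjusted p of 0.05, 186 had an unadjusted p under 0.05, and DESeq2 called 19. In the replicates tested, which leave out h3, B2m had 4099, 2599 and 5392 CPM in Empty vector. It had 411 and 734 CPM in Bmal1 WT h5 and h9, which did not overlap with these. Its log2 ratio was -2.86 ± 0.43 (SE, edgeR adjusted p = 0.0750). H2-K1 had 1668, 1199 and 2709 CPM against 296 and 242 CPM (log2 -2.85 ± 0.44). Tapbp had 459, 274 and 464 CPM against 38.6 and 51.8 CPM (log2 -3.13 ± 0.50), both at the same adjusted p. Summed over all members with 1 hashtag, h3 included, the log2 ratio was -1.59 for B2m and -1.86 for H2-K1. For these genes the 1 member of h3 thus lay nearer the Empty vector replicates than h5 and h9 did. Bst2, the antiviral tetherin, had a log2 ratio of -2.62 ± 0.46 (edgeR adjusted p = 0.119). Thbs2, a matrix thrombospondin, went the other way with 109, 144 and 142 CPM against 630 and 423 CPM (log2 1.91 ± 0.36, edgeR adjusted p = 0.120), but over all members it stood at 492 and 338 CPM. These 5 genes had the smallest p-values. All 8 MHC class I genes tested were lower with an unadjusted p under 0.05 (median log2 -2.62), as were 7 of 8 interferon-stimulated genes (median -2.83) and 4 of 4 complement genes. Of the 2006 genes tested, 529 had replicates that did not overlap between the groups. With 3 against 2 replicates a lack of overlap was thus common and sets no gene apart by itself.

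**Figure D5:**
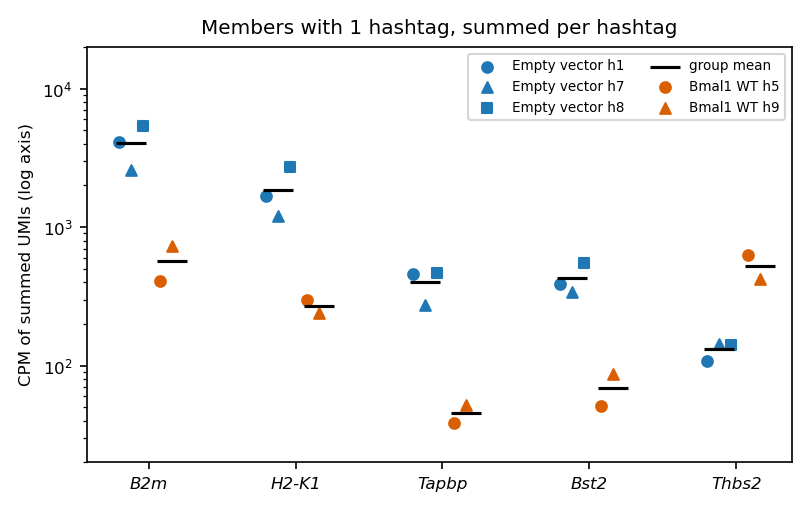
CPM of UMIs summed over the members of each hashtag, on a log axis, for the 5 genes with the smallest p-values; marker shapes tell the hashtags apart, Empty vector is blue, Bmal1 WT orange, and black bars are group means. B2m, H2-K1, Tapbp and Bst2 lay lower in Bmal1 WT h5 and h9 than in all 3 Empty vector hashtags, and Thbs2 lay higher. Bmal1 WT h3, with 1 member, is not shown.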

How the data were processed

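Filtered gene-by-cell matrices, deposited by the authors as whole counts of UMIs from Cell Ranger 6.1.2 and mm10 (per the labels, 10x 3' chemistry with hashtag antibodies), were used as deposited for the Empty vector and Bmal1 WT libraries. The members and gene lists were chosen with earlier results of these data known. UMIs were summed per library and set of cells, scaled to CPM over all genes, and compared as log2(CPM + 5). Genes were named from the lists, as the leading 15 per direction in each comparison, the 5 smallest p over hashtags, and the leading 5 of each group. Hashtags were assigned by a 2-component mixture on log counts. No doublet caller was run for the main values; an alternative left out cells with several hashtags and the deepest 5% per library. p-values over hashtags measure the spread between hashtags, which may be technical. Promoters came from RefSeq; gene names and coordinates from the files and their annotation. The edgeR step was tested on simulated data. Alternatives without cells with a Y-linked UMI, with Malat1 under 1000 CPM or with under 10000 UMIs, and doublet removal between libraries, were chosen after seeing the data. Tools were Python 3.11.15, scipy 1.17.1, scanpy 1.11.5, R 4.3.3, edgeR 4.0.16, limma 3.58.1 and DESeq2 1.42.0.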

Additional observations from a re-analysis of the deposited data

Results flagged for a closer look

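Of 420 list genes looked at, only Mmp9, for a gelatinase, stood over 2-fold apart between members and fibroblasts with Adm or Ndufa4l2 in opposite directions in the 2 libraries. The log2 ratio of members over those fibroblasts was 1.33 in Empty vector, with Mmp9 at 346 against 135 CPM, and -1.11 in Bmal1 WT, with Mmp9 at 19.4 against 47.7 CPM. The difference between the libraries was not tested, since each group had 1 library. In Empty vector members, 1 cell held 64.6% of the Mmp9 UMIs.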

How the results depend on the processing

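Over 99 gene and list values, 911 of 1257 alternative values stayed within the counting interval of the main value, 339 lay outside it, and in 7 a called value changed sign. No paired analysis was possible because the groups share no hashtag numbers. Members numbered 51 and 68 with 0 UMIs of Adm and Ndufa4l2, where Lpl turned to -1.37 between the libraries. Empty vector members numbered 46 without likely doublets and 45 with at least 1000 CPM of Malat1. Against all other cells, 989 genes were over 4-fold lower with a pseudocount of 1 CPM, and the Empty vector library alone gave 607 higher and 815 lower, since agreement in 2 libraries was no longer asked. Against other fibroblasts, higher genes numbered 196 with cells thinned to 3000 UMIs and 99 with genes of at least 20 UMIs; Empty vector alone gave 202 higher and 273 lower, Bmal1 WT alone 177 and 297. Between the libraries, genes higher and lower in Bmal1 WT numbered 388 and 241 with thinned cells, 152 and 164 with at least 20 UMIs, and 16 and 44 among members with 1 hashtag; higher genes alone numbered 122 with the mean of each cell's CPM, 88 without likely doublets and 21 without cells with a Y-linked UMI. Among members with 1 hashtag (18 and 9 cells), the log2 ratio turned for S100a4 (-0.73), Mki67 (-2.71), Top2a (-3.73), Ube2c (-3.19), Hmga2 (-1.75) and Has2 (0.18). Over hashtags, genes called numbered 107 with no filter, 19 with DESeq2, 1 (Ly6a) with hashtags by the highest centred log count, and 0 to 17 with 1 replicate left out, namely 9 without Empty vector h1, 17 without h7, 12 without h8 and 0 without Bmal1 WT h5 or h9, where the lone replicate is assumed to vary like the others. The difference in the share of members, 0.0756 percentage points, ranged from -0.178 to 0.373 with 1 replicate left out; it was -0.0328 without Empty vector h1, -0.0685 without h8 and -0.178 without Bmal1 WT h9. With hashtags by the highest centred log count it was 2.16 points (1.79% against 3.95%, two-sided exact permutation test, p = 0.60). Groups of members numbered 7 at a higher clustering resolution and 4 without immediate-early and heat-shock genes. The causes of these changes were not tested beyond what the settings themselves fix. Through all alternatives run, H2-K1 stayed at -1.73 to -2.32 and B2m at -1.04 to -1.80 in log2 between the libraries, and the hypoxia and glycolysis list at -1.66 to -1.48 between members and other fibroblasts.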

Other observations

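Genes of identity and patterning filled out the picture of the members. Of 31 fibroblast transcription factor genes, 15 were over 4-fold higher in members than in all other cells in both libraries, against 2.81% of all genes. Against fibroblasts with Adm or Ndufa4l2, 0 of 28 passed 2-fold, where 0.884% of all genes were higher and 2.31% lower, so the 0 is near that share. Of 16 genes of Wnt, Hedgehog and BMP modulation, 6 passed 4-fold over the remaining cells, against the same 2.81%. Of 8 genes given for antigen-presenting fibroblasts, 6 were over 4-fold lower, against 3.92% of all genes; they belong to MHC class II presentation, which leukocytes among the other cells express.

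Clock genes were looked at because the groups differ in Bmal1. Against fibroblasts with Adm or Ndufa4l2, Nfil3 and Rora were over 2-fold lower in members, of 15 clock genes tested, where 2.31% of all genes were lower. Rora, a nuclear receptor of the clock, stood at 75.1 and 56.3 CPM against 301 and 235 CPM. Arntl itself stood at 26.5 and 42.7 CPM in Empty vector and Bmal1 WT members, and at 67.0 and 56.1 CPM in those other fibroblasts. Il33, for an alarmin, stood at 260 and 78.2 CPM in members and at 452 and 682 CPM in the other fibroblasts, so its order between the libraries differed between the sets; this was not tested.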
